A study of Mus musculus with 6 samples.

Results

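Laminins, collagens and integrins are the chains of the extracellular matrix and of the receptors that bind it. Their genes were read here in the retina of mice at postnatal day 7. A gene was included when the array annotation gave its probe set a single symbol of the Lama, Lamb, Lamc, Col, Itga or Itgb series. That gave 67 of the 12393 genes named on the array, read by 114 probe sets: 10 laminin, 36 collagen and 21 integrin genes. Each gene was read from its probe set with the highest mean signal over the 6 arrays. There were 3 wildtype and 3 knockout arrays of retinal total RNA. Both groups are labelled C57BL/6, and no treatment is named. Whether 1 retina, 1 animal or a pool lay behind each array is not stated, so a p-value here refers to array-to-array spread, some of which may be technical.

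Laminins are trimers of an alpha, a beta and a gamma chain that form a sheet in basement membranes, together with a network of type IV collagen. In the eye such sheets lie at the vitreal surface of the retina, under the pigment epithelium, around retinal vessels and as the capsule of the lens. Integrins are pairs of an alpha and a beta subunit that bind these proteins at the cell surface and couple them to the actin cytoskeleton. In bulk tissue, fewer cells of a type and less RNA per cell cannot be told apart.

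The values are probe set signals made with MAS5, a method that sums up the probes of a set into 1 linear value. They were scaled here so that every array had the same trimmed mean. Before scaling, that mean lay between 170.8 and 312 in the arrays. A probe set was tested when its mean scaled signal exceeded 62.4, the 40th percentile of all, which kept 13575. Log2 fold changes are knockout minus wildtype on the log2(signal + 19.1) scale, which understates changes of dim probe sets. All 14 measured genes of a list of retinal neurons passed the filter, among them the photoreceptor genes Sag, Nrl and Crx. Knockout array 1 correlated with the others at 0.914 to 0.936, against 0.958 to 0.979 among the other 5.

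Of the 67 genes, 29 passed the filter: 2 of 10 laminins, 18 of 36 collagens and 9 of 21 integrins. The other 38 had mean signals between 2.64 and 62.2 and were not tested. The filter split the list between Col8a1 at 62.2, just below it, and Itga9 at 65.9, just above. No detection call was among the values used, so a low signal here does not show that a gene is off. Signals of different probe sets are not compared, because each probe set has its own response.

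**Figure D1:**
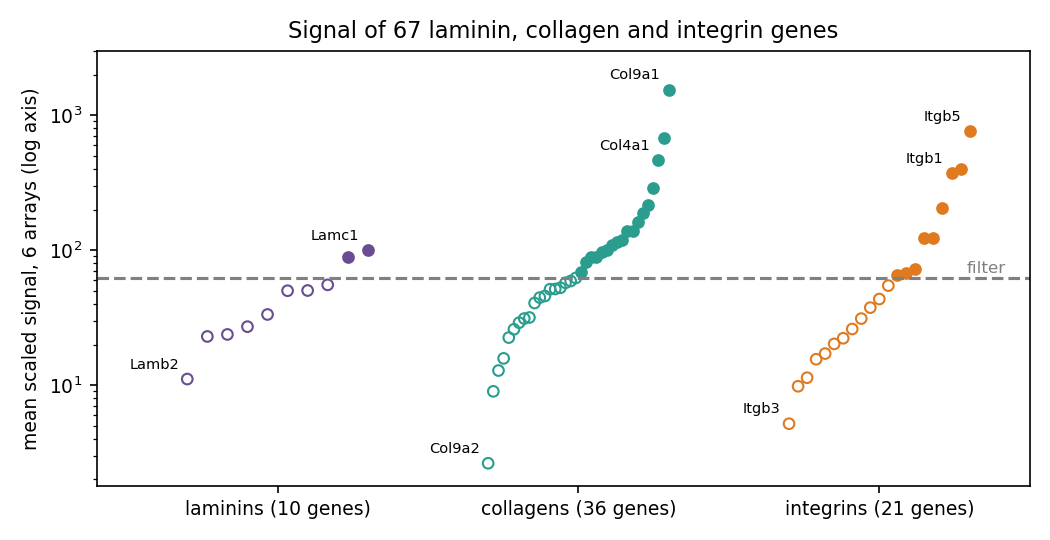
Mean scaled signal over 6 arrays (log axis) of each of the 67 genes, ordered within its family. Filled points are the 29 genes above the filter at 62.4 (dashed line), and open points are the 38 genes below it.

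None of the 29 tested genes passed a Benjamini-Hochberg adjusted p of 0.05 in limma, where 0.0147% of all 13575 probe sets did. Their adjusted p was 0.9985 in every case. At an unadjusted p under 0.05 there was 1 gene, Itgb1, which is 1 of 29 against 3.82% of all tested probe sets. Itgb1 was also the only tested gene whose wildtype and knockout arrays did not overlap, against 9.1% of all tested probe sets. None was both 1.5-fold apart and free of overlap, against 1.61% of all. Log2 fold changes lay between -0.44 and 0.46, with 15 positive, 14 negative and a median of 0.0097. Over all tested probe sets the median was 0.00031 and 50.1% were positive.

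How precisely the change of a single gene was measured is given by the intervals. They are not adjusted for the number of probe sets, so they do not give the change needed to pass the adjusted p. The 95% interval of a member's log2 fold change had a median half-width of 0.50, which is 1.41-fold. It lay wholly within 1.5-fold in either direction for 10 of the 29 genes and within 2-fold for 28. The exception at 2-fold was Col3a1, with an interval from -2.05 to 1.21. Of all 13575 tested probe sets, 6845 had an interval within 1.5-fold and 12327 within 2-fold.

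**Figure D2:**
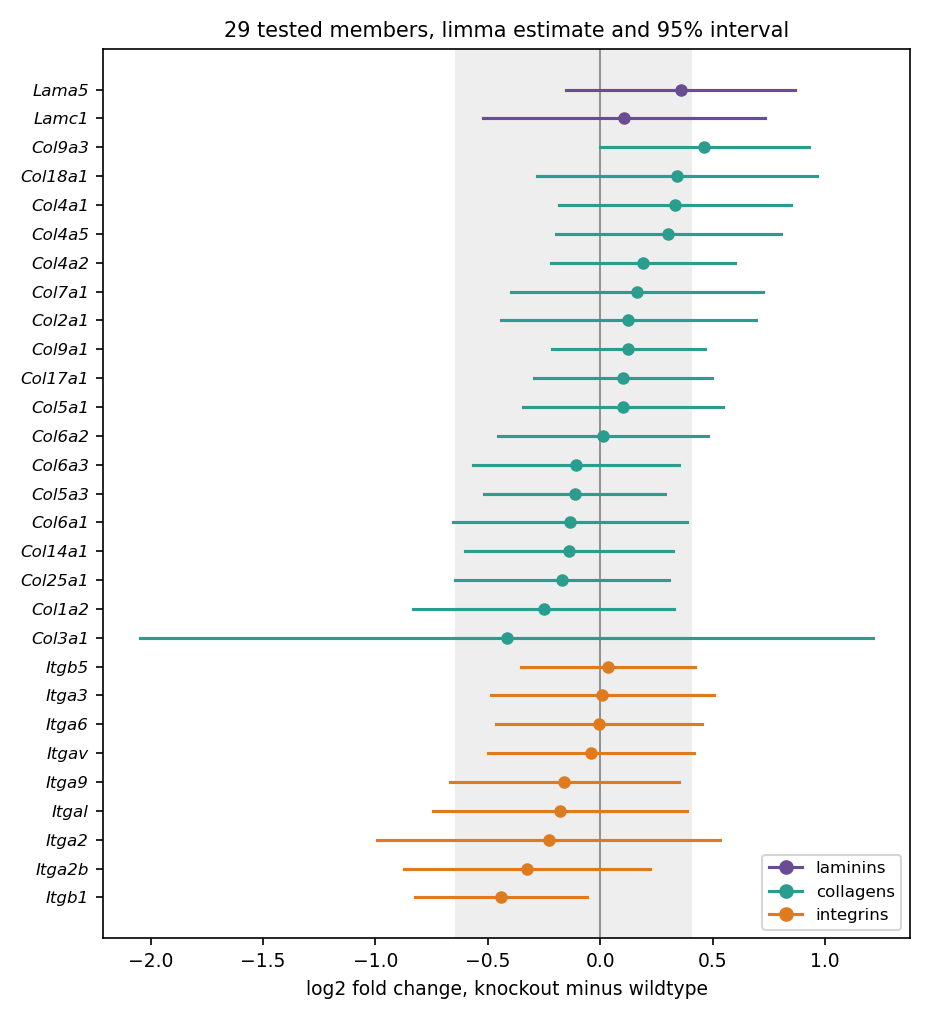
Log2 fold change (knockout minus wildtype) of the 29 tested genes with the 95% interval from limma, by family. The grey band spans the central 95% of all 13575 tested probe sets (-0.64 to 0.41). The interval of Itgb1 excludes 0, that of Col9a3 narrowly includes it, and Col3a1 has the widest.

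Among laminins, only Lama5 and Lamc1 were above the filter. Lama5 encodes the alpha-5 chain, found in many mature basement membranes. Its scaled signal came to 99.9, 76.8 and 54.1 in wildtype arrays 1 to 3 and 116, 102 and 88.0 in knockout arrays 1 to 3. The knockout arrays held the 2 highest values, while wildtype array 1 stood above knockout array 3, so the groups overlapped. The means were 76.9 ± 22.9 in wildtype and 102 ± 14.0 in knockout (SD, n = 3), with a log2 fold change of 0.36 ± 0.23 (SE; limma adjusted p = 0.9985). It was 0.18 without wildtype array 3. A less bright Lama5 probe set below the filter had 90.6, 28.0 and 46.6 in wildtype and 55.2, 61.7 and 40.2 in knockout, with no such order.

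Lamc1 encodes the gamma-1 chain, which most laminin trimers contain. Its signal came to 125, 67.2 and 93.4 in wildtype and 85.8, 76.6 and 154 in knockout. The highest array was knockout array 3 and the lowest wildtype array 2, with the rest mixed. Knockout minus wildtype came to 0.11 ± 0.28 on the log2 scale (SE; adjusted p = 0.9985 in limma), and it turned to -0.081 without wildtype array 2 and to -0.16 without knockout array 3.

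The other 8 laminins had mean signals of 11.1 to 55.3, under the filter. They included every beta chain on the array. Lamb2, whose protein lies at the retinal surface and in the matrix around photoreceptors, had 4.65, 17.2 and 14.8 in wildtype and 18.2, 3.42 and 8.38 in knockout. Lamb1 had 43.7, 43.3 and 68.4 in wildtype and 45.8, 50.1 and 80.8 in knockout, where array 3 was the highest of each group. Lama1, the alpha chain of early basement membranes, had 37.5, 11.0 and 33.4 against 4.63, 29.5 and 46.8. In none of the 8 did the groups stand clear of each other. Lama2, Lama3, Lama4, Lamb3 and Lamc3 completed the family on the array.

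Type IV collagen is the network of basement membranes. Of its 6 genes, Col4a1, Col4a2 and Col4a5 passed the filter, and Col4a3, Col4a4 and Col4a6 had means of 59.0, 12.8 and 51.5. With Col18a1, whose protein carries the endostatin fragment, 4 basement membrane collagens were tested. All 4 had positive log2 fold changes, with a median of 0.32, while none passed the test. The signs of all 4 were also positive with quantile normalization, with median scaling and without rescaling. In those settings 54%, 66.5% and 87.5% of all tested probe sets were positive too, so the signs alone say little. The median of the 4 minus that of all probe sets was 0.32 in the scaling used, and 0.31, 0.31 and 0.30 in turn.

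Col4a1 had 415, 333 and 459 in wildtype and 696, 375 and 497 in knockout. Knockout array 1 was far above the rest, and knockout array 2 lay below wildtype arrays 1 and 3. The means were 402 ± 64.0 and 523 ± 162 (SD, n = 3), with a log2 fold change of 0.33 ± 0.23 (SE; limma adjusted p = 0.9985). Its second probe set, with 372, 208 and 202 in wildtype and 251, 283 and 342 in knockout, had 0.20 and was highest in wildtype array 1.

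Col4a2, the partner chain in the same trimer, had 196, 173 and 229 in wildtype and 273, 207 and 212 in knockout. As in Col4a1, knockout array 1 was highest and wildtype array 2 lowest. Its difference on the log2 scale was 0.19 ± 0.18 (SE; adjusted p = 0.9985 in limma). Both genes rested on those arrays: without knockout array 1 they had 0.11 and 0.072, and without wildtype array 2 and knockout array 1 together -0.013 and -0.016.

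In the mouse these genes lie head to head on chromosome 8, which is a reason to read them side by side. By RefSeq (GRCm38.p6) their starts are 21 bases apart on opposite strands, Col4a2 on the plus strand. Col4a1 starts at base 11312826 and Col4a2 at base 11312805, so the transcripts overlap between the starts. The stretch at chr8:11312761-11312790, plus strand, lies ahead of the Col4a2 start and just inside the Col4a1 transcript. It is shown because it belongs to both genes, and capitals mark a CCAAT box 32 bases before the Col4a2 start.
Col4a1 and Col4a2: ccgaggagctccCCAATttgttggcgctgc
The X-linked pair Col4a5 and Col4a6 has 1342 bases between its starts. Col4a5 had 88.0, 60.3 and 111 in wildtype and 98.4, 122 and 106 in knockout, lowest in wildtype array 2, with a log2 fold change of 0.30 ± 0.22 (SE). It was 0.11 without wildtype array 2, and its other tested probe set had -0.075.

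Col18a1 had 337, 238 and 183 in wildtype and 461, 233 and 291 in knockout. Array 1 was the highest of each group, and the groups overlapped. Its log2 difference of 0.34 ± 0.28 (SE; adjusted p = 0.9985 in limma) came down to 0.081 without knockout array 1 and 0.15 without wildtype array 3, and its other tested probe set had -0.068. Col15a1, below the filter, had a mean of 44.5.

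Endothelial and pericyte genes, from which vessel basement membranes are made in part, were summed as well. The 14 endothelial genes (10 above the filter) totalled 1652 to 2292 in wildtype and 1733 to 2389 in knockout arrays. The 10 pericyte and smooth muscle genes totalled 1102 to 1231 and 1263 to 1500, the highest in knockout array 1, where Col4a1, Col4a2 and Col18a1 were highest too. Most of that total was Rgs5, with 755, 702 and 729 in wildtype and 930, 901 and 881 in knockout, which did not overlap. Its log2 fold change was 0.30 ± 0.13 (SE; limma unadjusted p = 0.045, adjusted p = 0.9985). The 9 genes without Rgs5 totalled 476, 483 and 374 in wildtype and 570, 392 and 382 in knockout, which overlapped. The totals of the pigment epithelium (4763), microglia and macrophage (2237) and astrocyte (1115) lists were also highest in knockout array 1. The part of any of these lists in the collagen values was not tested.

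**Figure D3:**
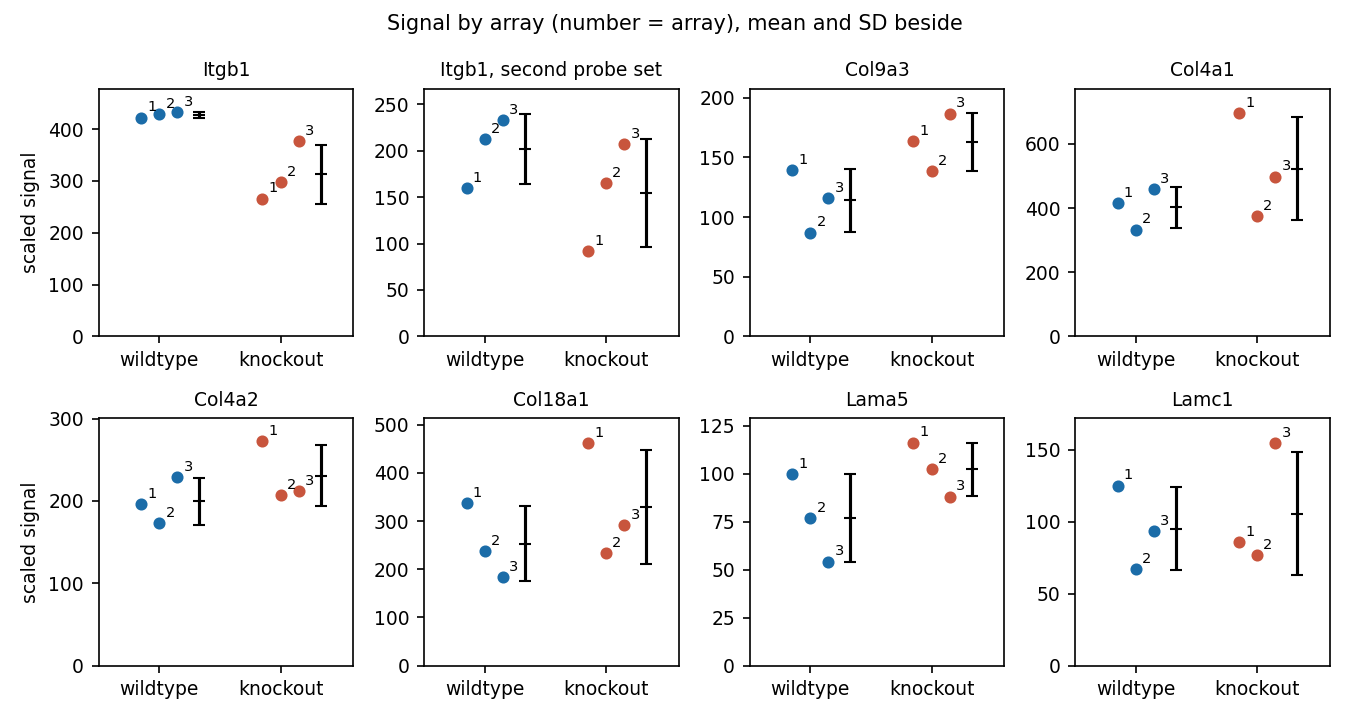
Scaled signal of Itgb1 (2 probe sets), Col9a3, Col4a1, Col4a2, Col18a1, Lama5 and Lamc1 in each array, numbered 1 to 3 within its group, on axes from 0, with the mean and SD (n = 3) beside. The groups stand clear of each other only in the brighter Itgb1 probe set, and knockout array 1 is the highest for Col4a1, Col4a2 and Col18a1.

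Collagens of types I and III form the fibrils of sclera, cornea, dermis and tendon. Of the tested members, Col3a1 had the widest spread between arrays of the same genotype. Col3a1 had 33.2, 30.9 and 402 in wildtype and 42.1, 39.2 and 111 in knockout. Wildtype array 3 stood 12.5-fold above the mean of the other wildtype arrays, and knockout array 3 was 2.72-fold above the mean of the other knockout arrays. Its within-group SD of 1.32 on the log2 scale was at the 99.9th percentile of all tested probe sets. The log2 fold change of -0.42 ± 0.73 (SE; limma adjusted p = 0.9985) became 0.60 without wildtype array 3 and 0.22 without array 3 of both groups.

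Type I collagen is made of the Col1a1 and Col1a2 chains, and their probe sets were not alike. They and Col3a1 are given by array because of these values, after they were seen. Col1a2 had 104, 90.6 and 196 in wildtype and 91.6, 102 and 109 in knockout, with a log2 fold change of -0.25 ± 0.26 (SE) that was 0.042 without wildtype array 3. Its dimmer probe set had 17.7, 27.0 and 110 in wildtype and 33.7, 20.9 and 50.0 in knockout. A Col1a1 probe set, below the filter, had 2.11, 2.70 and 91.5 in wildtype and 1.66, 1.94 and 34.2 in knockout. A dim Col3a1 probe set had 60.5 in wildtype array 3 and 37.7 in knockout array 3. Array 3 was the highest of its group in each of these. The brighter Col1a1 probe set, which is the one used for the gene, went another way, with 37.1, 25.4 and 24.0 in wildtype and 33.3, 24.7 and 45.7 in knockout. Wildtype array 3 was its lowest and knockout array 3 its highest.

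Of the lists of other tissues, the lens genes had their highest total of each group in these arrays, and the fibroblast and muscle lists did so in wildtype alone. The 14 lens genes, 7 of them above the filter, totalled 249, 276 and 2212 in wildtype and 722, 370 and 1301 in knockout. The lens crystallin gene Cryaa had 5.87, 4.45 and 251 in wildtype and 17.2, 12.6 and 130 in knockout. Dcn, the fibroblast proteoglycan decorin, had 9.75, 8.21 and 123 in wildtype and 45.6, 17.6 and 41.9 in knockout. Postn, the fibroblast matrix protein periostin, had 134 in wildtype array 3 and 10.7 to 45.6 elsewhere. The whole list of 12 fibroblast and scleral genes, 4 of them above the filter, totalled 2093, 1684 and 2267 in wildtype and 2121, 2068 and 1941 in knockout, where array 3 was the lowest. Kera, a corneal stroma gene of that list, had 1.58 to 6.64. The skeletal muscle genes Acta1 and Tnnc2 had 205 and 60.3 in wildtype array 3, while the other arrays had 37.9 to 62.1 and 1.87 to 4.39. The muscle genes above the filter other than Acta1 went the other way in wildtype, each lowest in array 3. Ckm had 79.2, 110 and 59.9 there, Casq1 131, 121 and 103, and Des 143, 142 and 86.5. The whole list of 14 muscle genes, 4 of them above the filter, totalled 551, 557 and 758 in wildtype and 448, 403 and 396 in knockout, again lowest in knockout array 3. Their part in the collagen values was not tested.

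**Figure D4:**
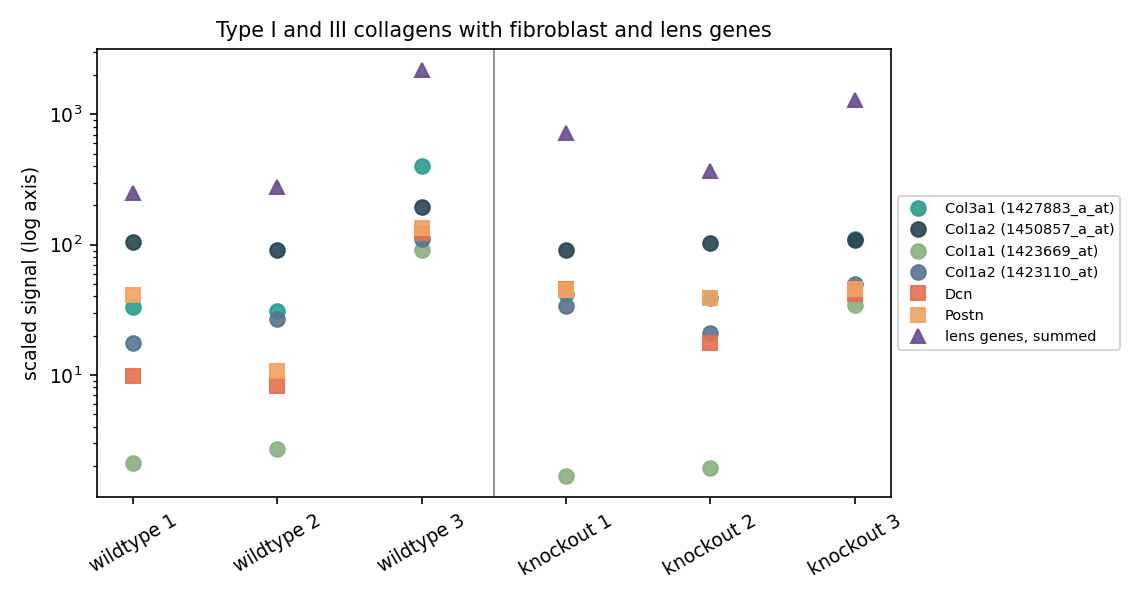
Scaled signal (log axis) by array of 4 probe sets of Col1a1, Col1a2 and Col3a1, of the fibroblast genes Dcn and Postn, and of the sum over 14 lens genes. Wildtype array 3 is the highest for every series. Knockout array 3 is the highest of its group for the 4 collagen probe sets, Postn and the lens sum.

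The starts of Col1a2 and Col3a1, which were both highest in array 3 of each group, are shown for the 250 bases before each, from RefSeq (GRCm38.p6), both on the plus strand, at chr6:4505368-4505617 and chr1:45311288-45311537. Capitals mark motif matches, searched on both strands, none of which overlaps another here. A GC box is spelled GGGCGG, and a CCAAT box by its name. A TATA box is spelled TATAAA.
Col1a2: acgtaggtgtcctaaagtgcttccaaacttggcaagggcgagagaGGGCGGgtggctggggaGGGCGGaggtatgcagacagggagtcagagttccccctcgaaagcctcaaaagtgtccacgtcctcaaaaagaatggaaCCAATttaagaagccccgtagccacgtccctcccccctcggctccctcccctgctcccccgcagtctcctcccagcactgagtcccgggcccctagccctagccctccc
Col3a1: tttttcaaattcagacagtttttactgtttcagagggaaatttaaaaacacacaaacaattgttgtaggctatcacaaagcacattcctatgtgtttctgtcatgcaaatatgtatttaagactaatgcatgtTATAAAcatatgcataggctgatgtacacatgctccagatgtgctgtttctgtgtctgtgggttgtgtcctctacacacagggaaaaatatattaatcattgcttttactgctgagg
The windows had no motif in common. Col1a2 had 2 GC boxes and 1 CCAAT box in 62.0% G and C, and Col3a1 had 1 TATA box in 35.2%. Of the 67 genes, 47 had an entry in the promoter table. Among these, 23 (48.9%) had a GC box in such a window, 15 (31.9%) a CCAAT box and 5 (10.6%) a TATA box. Counted per gene in the same way, over all 27025 genes of the table, the shares were 35.4%, 37.5% and 14.3%. Per window, over all 32851 windows of the same length, they were 32.7%, 33.8% and 12.4%.

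The cartilage-type collagens Col2a1, Col9a1 and Col9a3, which the vitreous and the retina also contain, were above the filter. Those of this kind below it included Col11a1 and Col11a2, with means of 57.3 and 52.6. Col2a1, the main fibril of the vitreous, had 780, 465 and 673 in wildtype and 549, 598 and 971 in knockout, with knockout array 3 highest and wildtype array 2 lowest. Col9a1, a chain that coats type II fibrils, had 1481, 1250 and 1723 in wildtype and 1691, 1698 and 1445 in knockout, and its groups overlapped throughout. Their log2 fold changes were 0.13 and 0.12. That of Col2a1 turned to -0.12 without knockout array 3 and to -0.081 without wildtype array 2.

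Col9a3, the partner of Col9a1 in type IX collagen, had the highest log2 fold change of the 29 genes. Its signal came to 139, 86.8 and 116 in wildtype and 164, 139 and 187 in knockout. Knockout array 2 lay just under wildtype array 1, and the other knockout arrays were above every wildtype array. The means were 114 ± 26.4 and 163 ± 24.0 (SD, n = 3), with a log2 fold change of 0.46 ± 0.21 (SE; limma adjusted p = 0.9985). It was 0.31 without wildtype array 2. Of Col9a3, a dimmer probe set below the filter had 45.2, 14.3 and 50.2 in wildtype and 56.8, 42.8 and 25.2 in knockout. Another had 25.1, 12.4 and 10.4 against 25.2, 16.7 and 9.94, and in both the groups overlapped. A second tested Col9a1 probe set had -0.013. On the probe sets used, Col9a1 and Col9a3 gave 0.12 and 0.46, and the difference between them was not tested. Col9a2, the other chain of this trimer, had a mean of 2.64.

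The remaining tested collagens gave values near the spread of the arrays. The fibrillar Col5a1 and Col5a3 had 0.10 and -0.11, and a second Col5a1 probe set had -0.21. Of type VI, the microfibril collagen, Col6a1, Col6a2 and Col6a3 had -0.13, 0.014 and -0.11. A further Col6a2 probe set had 0.48, with 166, 98.0 and 139 in wildtype and 241, 146 and 200 in knockout. Col7a1, of anchoring fibrils, had 0.16, and Col14a1, which binds fibril surfaces, had -0.14. The transmembrane Col17a1 and Col25a1 had 0.10 and -0.17.

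The 18 collagens below the filter held 4 whose groups did not overlap, which is 4 of the 38 untested members, against 8.45% of all probe sets below the filter. Col16a1, a fibril-associated collagen, had 10.8, 16.0 and 39.6 in wildtype and 74.9, 59.0 and 74.2 in knockout. Every knockout array was above every wildtype array, and wildtype array 3 stood above the other wildtype arrays. When all 22626 probe sets were fitted, its log2 fold change was 1.16 ± 0.28 (SE), with a limma unadjusted p of 0.0028 and an adjusted p of 0.9993. Col8a1 had 68.6, 9.06 and 62.8 in wildtype and 85.6, 72.0 and 75.4 in knockout, with 0.72 ± 0.42 (SE) in that fit, and wildtype array 2 alone was far from the rest. A dimmer Col8a1 probe set went the other way, with 9.22, 7.30 and 9.65 against 4.92, 6.24 and 5.87. Col19a1 was slightly higher and Col22a1 lower in knockout, at signals of 15.1 to 28.1 and 2.27 to 24.4. Col16a1, Col8a1, Col19a1 and Col22a1 are named after their values were seen.

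Itgb1 encodes the beta-1 subunit, which pairs with most laminin- and collagen-binding alpha subunits. Its signal came to 422, 428 and 433 in wildtype and 266, 297 and 376 in knockout. The wildtype arrays lay close together, and every knockout array was below them, knockout array 1 most. The means were 428 ± 5.41 and 313 ± 57.0 (SD, n = 3), with a log2 fold change of -0.44 ± 0.17 (SE; 95% interval -0.82 to -0.06; limma unadjusted p = 0.028, adjusted p = 0.9985). The value was -0.34 without knockout array 1, and -0.14 without rescaling, where the median of all probe sets was 0.29.

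The second tested Itgb1 probe set had 159, 213 and 233 in wildtype and 91.5, 165 and 207 in knockout, a log2 fold change of -0.39 ± 0.27 (SE). Here the groups overlapped. The other 4 Itgb1 probe sets had signals of at most 19.9 on every array. As measures of RNA quality, signal at the 3′ end of a control over that at the 5′ end stood for Actb at 1.64, 1.44 and 1.59 in the wildtype arrays, while knockout arrays had 2.17, 1.69 and 1.90. The ratios of the groups did not overlap for Actb, and the highest was in knockout array 1, where both tested Itgb1 probe sets were lowest. Within the knockout group array 2 had the lowest ratio, and array 3 was nearest to wildtype in Itgb1. For Gapdh the ratios of the groups overlapped, with 0.98, 0.82 and 0.88 against 1.18, 0.88 and 1.16. Their part in the Itgb1 values was not tested.

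The 250 bases before the Itgb1 start, at chr8:128685404-128685653 on the plus strand (RefSeq, GRCm38.p6), are shown as the promoter of the gene with the smallest p among the 29 tested, with its GC box in capitals. They held 68.0% G and C, 1 GC box and neither a CCAAT nor a TATA box.
Itgb1: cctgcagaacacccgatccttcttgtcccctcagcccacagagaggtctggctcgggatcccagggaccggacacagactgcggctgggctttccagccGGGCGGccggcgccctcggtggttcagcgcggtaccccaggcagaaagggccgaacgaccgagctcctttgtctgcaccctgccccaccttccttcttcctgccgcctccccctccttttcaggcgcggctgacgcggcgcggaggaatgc

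Of the alpha subunits, 7 of 13 passed the filter, and 6 of those 7 had negative log2 fold changes, from -0.33 to -0.0056, with a median over the 7 of -0.16. Itga3 and Itga6, which bind laminin, had 0.0097 and -0.0056. Itga3 had 226, 170 and 214 in wildtype and 277, 157 and 192 in knockout, and Itga6 had 151, 92.0 and 131 against 122, 128 and 116. For Itga6 the knockout arrays lay among the wildtype arrays, and for Itga3 knockout array 1 was the highest and knockout array 2 the lowest of all. Itgav, whose protein binds vitronectin and fibronectin, had 480, 314 and 415 in wildtype and 475, 342 and 351 in knockout, a log2 fold change of -0.042. A dim Itgav probe set had 45.6, 56.6 and 53.4 against 21.9, 33.7 and 45.6, the lowest in knockout array 1. Its partner Itgb5 had 761, 816 and 666 against 941, 664 and 715, with 0.036, and its other 3 tested probe sets had -0.081 to 0.027.

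The widest negative value among alpha subunits was that of Itga2b, the platelet fibrinogen receptor, with 167, 169 and 87.1 in wildtype and 110, 96.5 and 108 in knockout (log2 fold change -0.33 ± 0.24, SE). Itga2, a collagen-binding subunit, had 101, 117 and 32.9 against 65.4, 57.0 and 63.1 (-0.23 ± 0.34, SE). In both, wildtype array 3 was low and the knockout arrays lay close together between the wildtype values. Without wildtype array 3 they had -0.60 and -0.66. Itga9, which binds tenascin, had 92.1, 65.1 and 55.7 in wildtype and 62.3, 50.6 and 69.5 in knockout. Itgal, of leukocytes, had 79.3, 89.9 and 49.7 against 72.0, 44.5 and 68.7. Their log2 fold changes were -0.16 and -0.18, with overlapping groups. Over the 9 integrins, 7 were negative in the scaling used, 6 with quantile normalization, 5 with median scaling and 2 without rescaling. Their median minus that of all probe sets was -0.16, -0.096, -0.17 and -0.21 in turn.

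Itgam, Itgax and Itgb2, also integrins of leukocytes, were below the filter. Itgam and Itgb2, which form the complement receptor of microglia, had 20.8, 33.7 and 17.9 against 12.3, 21.8 and 27.0, and 65.0, 30.6 and 44.1 against 48.4, 32.0 and 40.5. Itgax had 63.2, 71.7 and 33.9 against 63.8, 55.6 and 39.4. In all 3 the groups overlapped. Beside them, 14 microglial and macrophage genes (9 above the filter) totalled 1395 to 1627 in wildtype and 1358 to 2237 in knockout arrays. Itga4, Itga5, Itga7, Itga8, Itgb2l, Itgb3, Itgb4, Itgb6 and Itgb7 had means of 5.18 to 37.5, and their groups overlapped as well.

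Seen by array instead of by gene, the members were not spread evenly over the arrays. Of the 29 tested genes, 12 (41.4%) were lowest in wildtype array 2, against 15.6% of all tested probe sets, and 8 (27.6%) in wildtype array 3, against 19.6%. In knockout array 2 there were 7 (24.1%), against 12.2%. Only 1 (3.45%) was lowest in knockout array 1, against 28.2% of all. The median within-group SD of the members was 0.27 on the log2 scale, and 0.23 over all tested probe sets. The 18S control probe set at the 5′ end, with 2573 in wildtype array 2 and 609 in knockout array 1, was 38.8 to 54.9 in the other 4 arrays. The lists of pigment epithelium, astrocytes, fibroblasts and Mueller glia had their lowest total in wildtype array 2, the other cell type lists elsewhere. Pigment epithelium genes totalled 2529 there and 3945 to 4763 in the other arrays. The part of the control and of these lists in the member values was not tested.

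**Figure D5:**
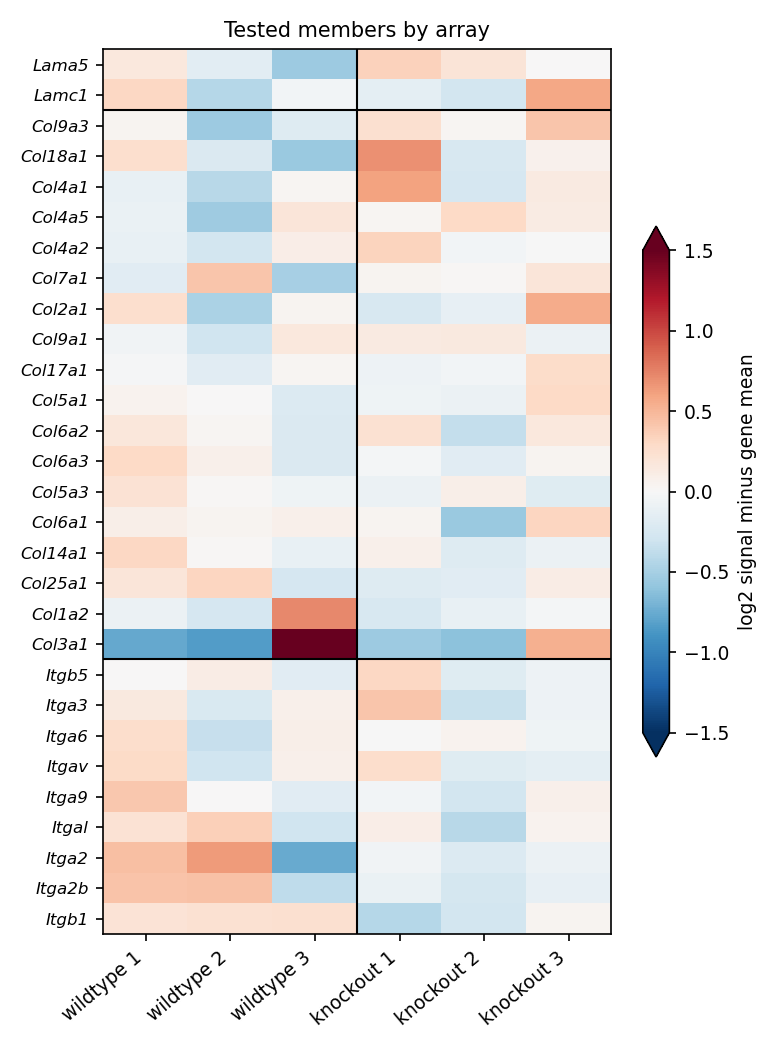
Log2 scaled signal of the 29 tested genes in each array minus the gene's mean over 6 arrays, wildtype left and knockout right of the vertical line, laminins, collagens and integrins from top to bottom. The strongest cell is Col3a1 in wildtype array 3, and Itgb1 is the only row in which all wildtype cells exceed all knockout cells.

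Probe sets of the same gene often differed in sign. For 8 tested members a further probe set passed the filter, 10 in all. Of these, 4 had the same sign as the probe set used and 6 the opposite one. The same sign throughout was found for Col4a1, Col6a2 and Itgb1.

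Other genes of the same pathway were read from 5 lists. No member passed an adjusted p of 0.05 in limma in any of them, nor an unadjusted p of 0.05. Of 14 tested partners in the basement membrane, 8 had positive and 6 negative log2 fold changes (median 0.042), with Sparc, a collagen-binding glycoprotein, at 0.17 and Agrn, the proteoglycan agrin, at 0.26. Of 16 genes of the integrin adhesion machinery, 10 were positive and 6 negative (median 0.057). Cd151, a tetraspanin that binds laminin receptors, had 389, 270 and 251 in wildtype and 531, 367 and 349 in knockout, a value of 0.43 ± 0.22 (SE). Cd47, an integrin-associated protein, had 725, 695 and 733 against 472, 557 and 702 on the probe set used, a value of -0.32 ± 0.17 (SE). In both, 1 array crossed the other group.

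The collagen-processing enzymes had 7 positive and 5 negative values among 12 tested (median 0.041), with the crosslinking oxidases Lox and Loxl1 at -0.30 and 0.34. The matrix proteases and their inhibitors had 5 positive and 7 negative values among 12 (median -0.077), with the inhibitor Timp4 at -0.32 and the sheddase Adam17 at -0.35. The dystroglycan complex, another laminin receptor, and the enzymes that glycosylate it had 3 positive and 7 negative values among 10 (median -0.033), with the mannosyltransferase Pomt2 at -0.31 and dystrobrevin, Dtna, at -0.17. Over the 5 lists, groups without overlap were found for 1 of 63 tested genes, against 9.1% of all tested probe sets: the adhesion protein Zyx (0.30 ± 0.17, SE). It was named after its values were seen.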

How the data were processed

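Retinal RNA of 6 samples was hybridised to Affymetrix arrays. The deposited intensity values are linear MAS5 probe set signals, per the submitters' processing notes. Their version and scaling target are not given in the sources used here, and the table used holds no detection calls. Groups come from the labels. The targeted gene is not reported here, so genotypes were not checked by its signal. The members and gene lists were chosen with earlier results of these data known.

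From the deposited values, 64 control probe sets were left out and arrays were brought to one trimmed mean (257, leaving out 2% in each tail). Before log2, 19.1 was added as pseudocount, which is the 20th percentile of all signals. The difference between genotypes came from limma 3.58.1 (R 4.3.3; lmFit, eBayes with an intensity trend) over 13575 probe sets, with Benjamini-Hochberg adjustment over all of them. The fit was tested on simulated data. The number of arrays limits the precision. Gene names came from the platform annotation (20380 with 1 symbol, 691 with several, which were not used), with symbols updated through Entrez identifiers (20351 matched). Some probe sets used can also bind related transcripts, by their suffix (Itgb5 and Col6a2, _x_at). Values by array are given for members 1.5-fold apart without overlap, up to 5 per family with the largest moderated statistic, and Itgb1, Lamb2, Lamc1, Col4a1 and Col4a2. Others shown by array were added after their values were seen. Of each pathway list the 2 genes with the largest statistic are named. Alternatives covered scaling, pseudocount, filter, variance model, array weights, a replicate block, left-out arrays and the mean over probe sets.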

Additional observations from a re-analysis of the deposited data

How the results depend on the processing

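No member passed the adjusted p of 0.05 under any of the 19 alternatives, where the lowest adjusted p of a member ranged from 0.61 to 0.9999. Leaving out wildtype array 3 and knockout array 3 together was chosen after seeing the data. Correlations of same-numbered deviations were 0.18, -0.029 and 0.084, and not every array was closest to its own number. Arrays 1 were closest to each other, and the lens genes and Col3a1 were highest in array 3 of both groups. With 3 arrays per group, whether replicate numbers pair the arrays cannot be decided from this. With the replicate block 0 members and 2 probe sets passed in limma, with a lowest adjusted p of 0.85 for a member. Some alternatives used fewer arrays or other numbers of probe sets, and the cause of the changes below was not tested.

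The count of all probe sets that passed (2) was 10 without rescaling, 1 without a filter, 4 without wildtype 2 and knockout 1, while leaving out wildtype 3 and knockout 3 gave 0. With 1 array left out it ranged from 0 (without wildtype 3) to 4 (without wildtype 2). Of all tested probe sets, those 1.5-fold apart without overlap (219) numbered 361 without rescaling, 351 without a filter, 122 with the stricter filter, 137 with array weights, 141 without wildtype 2 and knockout 1, 680 when wildtype 3 and knockout 3 were left out, and 152 to 767 with 1 array left out. Among members (0 of 29) there were 2 of 29 without rescaling and 2 of 67 without a filter (Col16a1 and Col8a1). There were 2 of 29 without wildtype 3 and knockout 3, and 0 to 3 of 29 with 1 array left out.

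Medians of log2 fold changes moved without rescaling to 0.29 over all members, 0.49 for laminins, 0.37 for collagens and 0.083 for integrins, where that of all probe sets was 0.29. Without wildtype 3 and knockout 3, collagens had -0.038 and integrins -0.36. With 1 array left out the medians ranged from -0.10 to 0.11 over all members, 0.14 to 0.41 for laminins, -0.037 to 0.16 for collagens and -0.28 to 0.0029 for integrins. No laminin passed the stricter filter, so it gave no laminin median.

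Of 533 values of single genes under the alternatives, 61 turned sign, in 23 of 29 genes, none of which passed the test. Quantile normalization turned Itga6 (0.064), and median scaling Itga6 (0.075) and Itgav (0.048). Without rescaling, Col14a1 (0.11), Col25a1 (0.10), Col5a3 (0.16), Col6a1 (0.14), Col6a3 (0.15), Itga2 (0.045), Itga6 (0.26), Itga9 (0.083), Itgal (0.076) and Itgav (0.26) turned. Array weights turned Col3a1 (0.29), Col6a2 (-0.082), Itga3 (-0.093), Itga6 (0.0092) and Itgb5 (-0.097). Without wildtype 2 and knockout 1, Col4a1 (-0.013), Col4a2 (-0.016), Col6a2 (-0.076), Col9a1 (-0.028), Itga2 (0.0016), Itga3 (-0.31) and Itgb5 (-0.047) turned. Without wildtype 3 and knockout 3, Col2a1 (-0.071), Col3a1 (0.22), Col5a1 (-0.10), Col6a2 (-0.17), Col7a1 (-0.094), Itga6 (0.068), Itgav (0.052) and Lamc1 (-0.15) turned. With the mean of a gene's tested probe sets, Col5a1 (-0.056) and Itgb5 (-0.0061) turned.

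With 1 array left out, the ranges of the genes that turned were -0.0099 to 0.17 for Col17a1, -0.44 to 0.042 for Col1a2, -0.12 to 0.28 for Col2a1, -0.94 to 0.60 for Col3a1, -0.022 to 0.17 for Col5a1, -0.33 to 0.11 for Col6a1, -0.095 to 0.20 for Col6a2, -0.24 to 0.017 for Col6a3 and -0.044 to 0.41 for Col7a1. They were -0.66 to 0.033 for Itga2, -0.20 to 0.18 for Itga3, -0.18 to 0.13 for Itga6, -0.28 to 0.0029 for Itga9, -0.20 to 0.089 for Itgav, -0.11 to 0.14 for Itgb5 and -0.16 to 0.29 for Lamc1.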
